A study of Homo sapiens with 3 samples.

Results

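Tigit and 5 ligands of immune checkpoint receptors (Pvr, Cd274, Cd276, Cd47 and Lgals9) were followed in AB12, a mouse malignant mesothelioma cell line, with and without a hairpin against Nf2. The 6 genes were picked by symbol from the 13936 genes of the deposited table, and all 6 had a row. They were picked as checkpoint molecules that tumour cells may carry, at a time when the difference of Tigit between the hairpin groups was already known, so their differences between shNF2 and shSC are given as a description without a test. The study set AB12 cells labelled shNF2 against AB12 cells labelled shSC, taken as the control hairpin. There was 1 shSC library, whose source name marks it WT, and there were 2 shNF2 libraries numbered 20 and 21, whose source names mark them KD. All 3 were polyA-selected RNA of cells grown in RPMI with serum. What the numbers 20 and 21 stand for is not given in the labels, nor whether the libraries came from separate cultures, and all rest on 1 cell line.

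Checkpoint molecules set how strongly lymphocytes and phagocytes respond to the cells they touch. TIGIT is an inhibitory receptor of T cells and natural killer cells. It binds PVR (CD155), a nectin-like adhesion protein, and competes for it with the activating receptor CD226. PD-L1, encoded by Cd274, binds PD-1 on T cells and is induced by interferon gamma, while CD276 (B7-H3) is another member of the B7 family. CD47 binds SIRP alpha on macrophages and restrains phagocytosis. Galectin-9, encoded by Lgals9, is a sugar-binding protein with TIM-3 among its receptors. Mesotheliomas often lose NF2, which encodes merlin.

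Reads in genes numbered between 25837151 (library 20) and 29532600 (shSC). Levels are given as scaled counts, which are reads divided by 1 factor per library. Nf2 stood at 1539 scaled counts (shSC), 486 (library 20) and 458 (library 21). Library 21 stood apart from the others in relation to base composition. Spearman's rho across genes, which are not independent replicates, between the GC content of human transcripts of the same symbol and the log2 difference from shSC was -0.37 in library 21 and -0.04 in library 20. When genes were ordered by GC content and cut into 8 equal groups, the median difference of library 21 was 0.19 at the low end and -0.31 at the high end. Of 24 T and natural killer cell markers 1 was among the genes analysed here, Lck, with 7, 10 and 9 reads in shSC, library 20 and library 21. The sum of 4 macrophage and dendritic markers (of 14), most of it Mrc1 and Cd14, ran from 8070 scaled counts in library 21 to 9307 in shSC. Its members went both ways: Lyz2 stood at 56.5 (shSC), 260 (library 20) and 108 (library 21), and Cd14 at 3222, 2576 and 1659. Mrc1 (5940, 5617 and 6215) and Cd68 (88.6, 105 and 87.5) lay on both sides of shSC, with log2 fold changes of -0.01 and 0.11. The sum of 6 mesothelial markers (of 12), with Krt18 as its largest part, ran from 35541 in library 21 to 45886 in shSC. Its members also went both ways, with 2 above shSC in both shNF2 libraries and 3 below it in both. The 3 lower ones were the keratin genes Krt8, Krt18 and Krt19, at -0.37, -0.36 and -0.86 on the log2 scale. None of these 3 passed (limma adjusted p = 0.664, 0.694 and 0.0996). Against that sum Krt7, a keratin gene, rose from 49.7 to 290 and 183 (2.19 on the log2 scale; limma adjusted p = 0.0119). The other higher marker, Msln, stood at 7397 scaled counts (shSC), 9722 (library 20) and 8977 (library 21). Its log2 fold change of 0.34 did not pass (limma adjusted p = 0.688). Of the B cell and fibroblast markers, 1 of 6 and 3 of 10 were analysed, and Pax5, a B cell factor, stood at 208 scaled counts (shSC), 219 (library 20) and 304 (library 21). The fibroblast markers summed to 14.6, 22.0 and 90.4, and library 21 stood apart through Acta2, the smooth muscle actin gene, with 1, 1 and 71 reads. The part of other cells in the results below was not tested.

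Tigit, the receptor of the set, was higher in both shNF2 libraries. It stood at 108 scaled counts (shSC), 429 (library 20) and 386 (library 21). These values rest on 111, 410 and 397 reads. Both shNF2 libraries lay far above shSC and close to each other. The ratio to shSC was 3.97 in library 20 (exact 95% interval 3.21 to 4.94) and 3.57 in library 21 (2.89 to 4.45), with intervals that cover counting error only. On the scale of log2(scaled count + 1), the difference from shSC was 1.98 in library 20 and 1.83 in library 21, a mean of 1.90 ± 0.29 (SE of the limma fit, with 2 shNF2 libraries and 1 shSC library). Of the 12813 genes tested, those with a mean of 10 scaled counts or more (all 6 members among them), 62 had a higher mean difference. In libraries of whole cultures, more RNA per cell and more cells that carry the RNA cannot be told apart.

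Pvr, which encodes the ligand of TIGIT, was nearly level across the libraries. It stood at 1975 scaled counts (shSC), 1936 (library 20) and 1804 (library 21). Library 20 was within counting error of shSC, with a ratio of 0.981 (0.920 to 1.04), and library 21 was slightly lower at 0.914 (0.857 to 0.973). The mean log2 difference was -0.08 ± 0.21 (SE). Its sign depends on the scaling: scaled by reads in genes, Pvr had 68.7 RPM (shSC), 71.6 RPM (library 20) and 69.2 RPM (library 21), and the mean log2 difference was 0.036. The receptor and its ligand therefore stood in a different proportion in the 2 groups. For every 100 reads of Pvr there were 5.47 reads of Tigit in shSC (exact 95% interval 4.48 to 6.63), 22.2 in library 20 (19.9 to 24.7) and 21.4 in library 21 (19.1 to 23.9). This proportion is set by reads and not corrected for transcript length, so it can be compared between libraries but does not say which RNA is the more abundant.

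**Figure D1:**
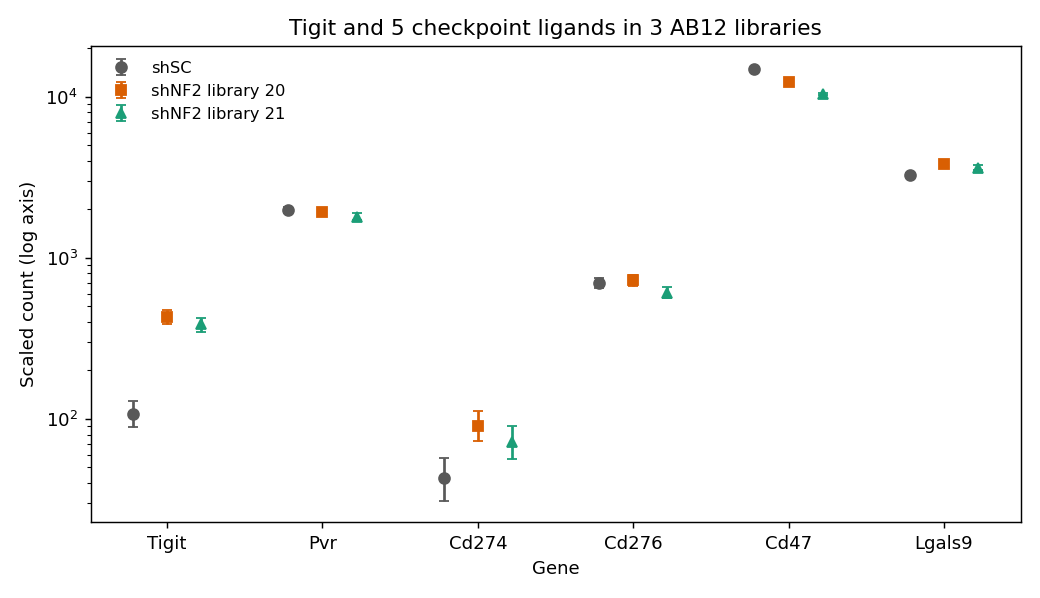
Scaled counts (log axis) of Tigit, Pvr, Cd274, Cd276, Cd47 and Lgals9 in the shSC library and in shNF2 libraries 20 and 21; bars are exact 95% counting intervals. Tigit stands at 108 in shSC against 429 and 386 in the shNF2 libraries, while Pvr lies between 1804 and 1975 in all 3. Heights of different genes are not corrected for transcript length and are not to be compared.

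Cd274, the PD-L1 gene, rested on few reads and was higher in both shNF2 libraries. It stood at 42.8 scaled counts (shSC), 91.0 (library 20) and 71.9 (library 21), from 44, 87 and 74 reads. Library 20 was the highest and shSC the lowest. The ratio to shSC was 2.12 in library 20 (1.46 to 3.13) and 1.68 in library 21 (1.14 to 2.497), so these counts place the difference only within a wide range. The mean log2 difference was 0.90 ± 0.40 (SE), and 339 of the tested genes had a higher one. The counting intervals of libraries 20 and 21 overlap, since their own ratio was 0.790 (0.572 to 1.09).

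Cd276, the B7-H3 gene, lay on opposite sides of shSC in the shNF2 libraries. It stood at 700 scaled counts (shSC), 725 (library 20) and 607 (library 21). Library 20 was within counting error of shSC, with a ratio of 1.04 (0.932 to 1.15), and library 21 was lower at 0.866 (0.777 to 0.966). The mean log2 difference was -0.08 ± 0.25 (SE). Cd276 is a gene whose human transcripts have a high GC content (63.1%), where library 21 ran low over all genes. Less the median of tested genes of like GC, the difference was 0.10 in library 20 and 0.11 in library 21.

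Cd47 was lower in both shNF2 libraries. It stood at 14940 scaled counts (shSC), 12316 (library 20) and 10391 (library 21), which rest on 15344, 11774 and 10690 reads. The 3 values are well apart for their counting error, in the order shSC, library 20, library 21. The ratio to shSC was 0.824 in library 20 (0.805 to 0.844) and 0.695 in library 21 (0.678 to 0.713). The log2 difference was -0.28 in library 20 and -0.52 in library 21, a mean of -0.40 ± 0.22 (SE). A mean difference below that of Cd47 was found in 14.3% of tested genes. Human CD47 transcripts have a low GC content (38.5%), where library 21 ran high over all genes. Less the median of genes of like GC, the difference in library 21 was -0.71 and that in library 20 was -0.30.

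Lgals9, the galectin-9 gene, was slightly higher in both shNF2 libraries. It stood at 3268 scaled counts (shSC), 3838 (library 20) and 3638 (library 21). Both shNF2 values lay above shSC, by a ratio of 1.17 in library 20 (1.12 to 1.23) and of 1.11 in library 21 (1.06 to 1.17). The mean log2 difference was 0.19 ± 0.21 (SE), and 57.4% of tested genes had a larger one in either direction. The median standard error over all tested genes was 0.26. For a typical gene, differences somewhat larger than that stay uncertain too, since a confidence interval spans more than 1 standard error on each side. No spread was measured for shSC, which had 1 library.

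**Figure D2:**
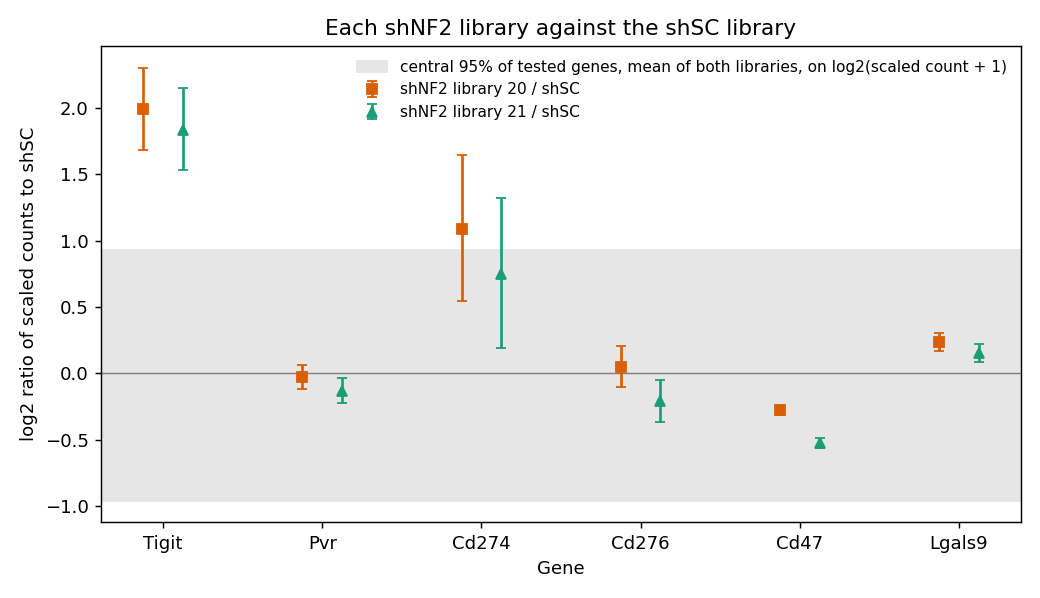
Log2 ratio of scaled counts of each shNF2 library to the shSC library for the 6 genes, with exact 95% counting intervals; the grey band holds the central 95% of 12813 tested genes (mean of both libraries, on log2(scaled count + 1)). Both values of Tigit lie above the band, Cd274 lies near its upper edge, and the other 4 genes lie inside it.

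Across the 6 genes, 3 were above shSC in both shNF2 libraries (Tigit, Cd274 and Lgals9), 2 were below it in both (Pvr and Cd47) and Cd276 lay on both sides. Over all tested genes, 36.1% were above shSC in both and 35.8% were below it in both. Both shNF2 libraries share the shSC library, so its chance value enters both differences. Tigit was the only member more than 2-fold above shSC in both libraries, a place held by 1.33% of tested genes. The median of the 6 mean differences was 0.06, and that of all tested genes was 0.00.

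**Figure D3:**
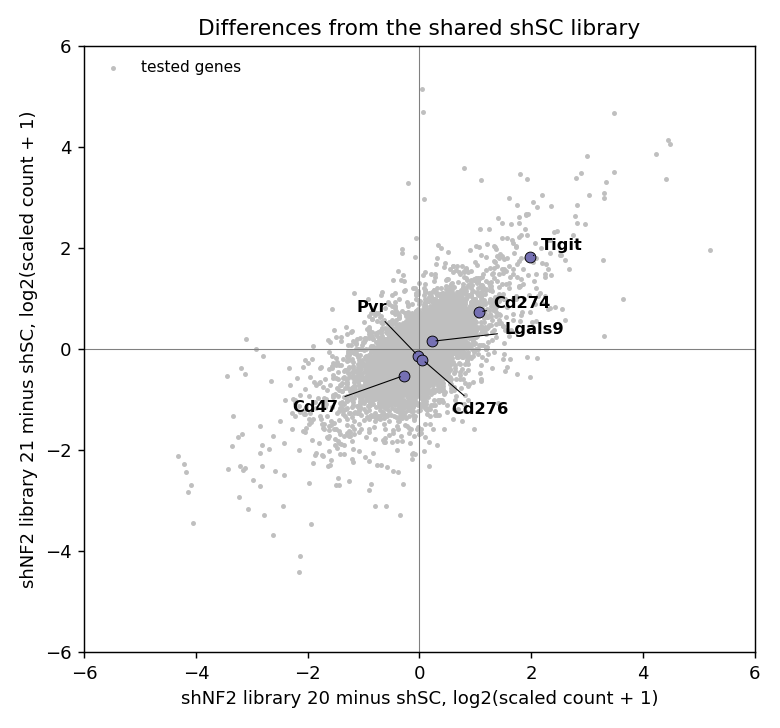
Difference from the shared shSC library in shNF2 library 20 (horizontal) and library 21 (vertical), both on log2(scaled count + 1), for 12813 tested genes (grey) and the 6 checkpoint genes (violet). Tigit lies at 1.98 and 1.83, at the edge of the cloud, Cd274 at 1.07 and 0.73, and Cd47 at -0.28 and -0.52. Pvr, Cd276 and Lgals9 lie nearer the centre.

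The shNF2 libraries were also set against each other in these genes, with 1 library on each side and so no test. All 6 were lower in library 21 than in library 20, as were 49.2% of tested genes. The log2 difference of library 21 from library 20 was -0.34 for Cd274, -0.26 for Cd276, -0.25 for Cd47, -0.15 for Tigit, -0.10 for Pvr and -0.08 for Lgals9. The quartiles of all tested genes were -0.23 and 0.22. Counting intervals of the ratio of library 21 to library 20 reached past 1 for Tigit (0.782 to 1.04) and Cd274, and stayed below 1 for the other 4. Less the median of genes of like GC, the difference of Cd47 was -0.40, those of Cd276 and Pvr were -0.0052 and -0.0019, and that of Lgals9 was 0.14.

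The genes whose pair of differences lay nearest to that of Tigit, among 9542 named genes with a mean of at least 100 scaled counts, were Wisp1, Ccl9, Dlk2, Ptprf and Stxbp6. The likeness is the Euclidean distance between the differences of libraries 20 and 21 from shSC, and so rests on 3 libraries. The minimum is a mean over the libraries, and Wisp1, Dlk2, Ptprf and Stxbp6 reached it only through the shNF2 libraries, where they were high, so the choice favours genes with the pattern of Tigit. Wisp1, a secreted matricellular protein of the CCN family, was the nearest at a distance of 0.17, with scaled counts of 42.8 (shSC), 153 (library 20) and 152 (library 21). The chemokine gene Ccl9 followed at 0.29 and the Notch ligand-like gene Dlk2 at 0.36, with 44.8, 175 and 125 scaled counts in the 3 libraries. Ptprf, a receptor phosphatase gene, lay at 0.45 and Stxbp6, a syntaxin-binding protein gene, at 0.46.

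Other genes of these pathways were read from 9 lists of partners and regulators, in which 64 of 104 genes were tested. Of the 64, 1 rose (Havcr1, which reached the mean of 10 only through the shNF2 libraries) and 1 fell (Ceacam1). These calls are by limma with Benjamini-Hochberg adjustment over all genes, where 0.414% of tested genes rose and 0.429% fell. edgeR and DESeq2 each called 2 of the 64. At an unadjusted limma p under 0.05 there were 17 of the 64, 6 higher and 11 lower, a cut that 9.27% of all tested genes passed (1188 of 12813). The median log2 fold change of the 64 was 0.04. Among the genes described below, Pvrl4, Vtcn1, Qpct, Itgb3, Lgals2, Lgals4 and Lgals3bp were chosen after their values were seen. These p-values rest on 1 residual degree of freedom, from the 2 shNF2 libraries, and 11.9 prior ones, from the variance trend over all genes. They measure only the spread between the shNF2 libraries, mostly that of other genes, and this spread may be technical. The shSC library was assumed to vary as the shNF2 libraries did.

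In the list of PVR and nectin genes, which holds the nectins and also Cadm1 and the afadin gene Mllt4, no member passed the test. All 6 tested were above shSC in both libraries, as were 36.1% of all tested genes. Pvrl2 (nectin-2), which also binds TIGIT, stood at 653 scaled counts (shSC), 1187 (library 20) and 699 (library 21). Library 20 alone was far above shSC. Pvrl3 (nectin-3), another binding partner, had 986, 1041 and 1171 in the same order. Pvrl4 (nectin-4) had 17.5, 60.7 and 36.0, 1.37 ± 0.50 on the log2 scale (SE; limma adjusted p = 0.364), and was the 1 gene of the list at an unadjusted p under 0.05. The median over the list was 0.44 on the log2 scale, where that of all genes was 0.00, and edgeR and DESeq2 called 0 of its genes. The lymphocyte receptors Cd226, Cd96 and Pvrig, which bind PVR or nectins, were not analysed here.

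Around PD-L1, no gene of the PD-1 ligand list or of the interferon gamma list passed. Cd80, which encodes B7-1 and binds CD28, CTLA-4 and PD-L1, stood at 587 scaled counts (shSC), 866 (library 20) and 896 (library 21) (log2 fold change 0.58 ± 0.23, SE; limma adjusted p = 0.433). Cmtm6 and Cmtm4, whose proteins protect PD-L1 from degradation, had log2 fold changes of 0.09 and -0.06. The interferon gamma receptor genes Ifngr1 and Ifngr2 had 0.17 and -0.47. Jak1 and Jak2, the kinases of that receptor, had 0.45 and 0.46, and the transcription factor gene Irf1 had 0.18. Irf1 lay on both sides of shSC, with 1538 scaled counts there, 2082 in library 20 and 1464 in library 21. Of the 11 interferon gamma genes 4 were above shSC in both libraries and 4 below it in both, with a median of 0.02, and 1 was at an unadjusted limma p under 0.05. Of the 4 PD-1 ligand genes tested 1 was, and edgeR and DESeq2 called 0 in both lists. The PD-L2 gene Pdcd1lg2 and Cd86 and Pdcd1 were not analysed here.

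Among other B7 family genes, beside Cd276, none of 5 passed. Vtcn1, which encodes the inhibitory ligand B7-H4, stood at 642 scaled counts (shSC), 311 (library 20) and 327 (library 21), the lower values in both shNF2 libraries (log2 fold change -1.01 ± 0.26, SE; limma adjusted p = 0.125). Among the alternatives it passed only without the filter on low values (limma adjusted p = 0.0478). It was the 1 gene of the list at an unadjusted p under 0.05, and edgeR and DESeq2 called 0. Treml2, a proposed receptor of CD276, was not analysed here.

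Around CD47, none of 8 genes passed. Thbs1 encodes thrombospondin-1, a secreted ligand of CD47, and stood at 99.3 scaled counts (shSC), 173 (library 20) and 1196 (library 21). Library 21 alone was many times higher, and the difference was 2.18 ± 0.73 on the log2 scale (SE, limma adjusted p = 0.29). Among the alternatives Thbs1 passed only without the filter on low values (limma adjusted p = 0.0175). With robust moderation its limma adjusted p was 0.824, and with TMM scaling 0.389. Qpctl, whose enzyme modifies the end of CD47 that SIRP alpha binds, had 153, 195 and 131 scaled counts and a log2 fold change of 0.06. Calr, which encodes the phagocytosis signal calreticulin, had 35558, 40359 and 39124 and a log2 fold change of 0.16. Lrp1, which encodes a receptor of calreticulin, had 1114, 692 and 984. At an unadjusted limma p under 0.05 there were 3 genes of this list, Thbs1 higher and 2 lower, beside 9.27% of all tested genes, and edgeR and DESeq2 called 0. The lower ones were Qpct, a relative of Qpctl, at -1.15 on the log2 scale, and the integrin gene Itgb3 at -1.54. Sirpa was not analysed here.

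Around galectin-9, 1 of 11 genes rose and 1 fell. Havcr1 encodes TIM-1, a receptor of phosphatidylserine, and stood at 4.87 scaled counts (shSC), 46.0 (library 20) and 81.6 (library 21). It rose by 3.41 ± 0.54 on the log2 scale (SE; limma adjusted p = 0.00933), from 5 reads in shSC against 44 and 84. Its shSC value is under the minimum of 10, so it entered the test only through the shNF2 libraries where it is high. The size of its difference depends on the pseudocount, and was 2.27 with a pseudocount of 10. Ceacam1, an adhesion gene whose protein is a reported ligand of TIM-3, stood at 923 scaled counts (shSC), 106 (library 20) and 181 (library 21). It fell by 2.73 ± 0.34 on the log2 scale (SE; limma adjusted p = 0.00299). Both calls were lost under quantile normalization (adjusted p = 0.515 and 0.496) and without a variance trend (0.141 and 0.187).

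Havcr2, which encodes TIM-3 itself, was counted in these tumour cells, with 396 scaled counts for shSC and lower values of 179 and 213 for libraries 20 and 21. Its log2 fold change of -1.02 ± 0.29 (SE) did not pass (limma adjusted p = 0.176). Of the galectin genes, Lgals1 had 102094, 81184 and 75997 scaled counts, Lgals3 had 16274, 15633 and 17962, and Lgals8 had 3050, 2816 and 3127. None of them passed, at -0.38, 0.04 and -0.04 on the log2 scale. Lgals2, Lgals4 and Lgals3bp, whose protein binds galectins, were lower in both shNF2 libraries, at -1.22, -1.12 and -0.55, and did not pass either (limma adjusted p = 0.542, 0.506 and 0.455). Lgals4 has a close copy in mice, so its reads may be shared. At an unadjusted limma p under 0.05 there were 5 of the 11 genes, 1 higher and 4 lower, beside 9.27% of all tested genes. The median over the list was -0.38, and 7 of its 11 genes were below shSC in both libraries against 35.8% of all tested genes.

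**Figure D4:**
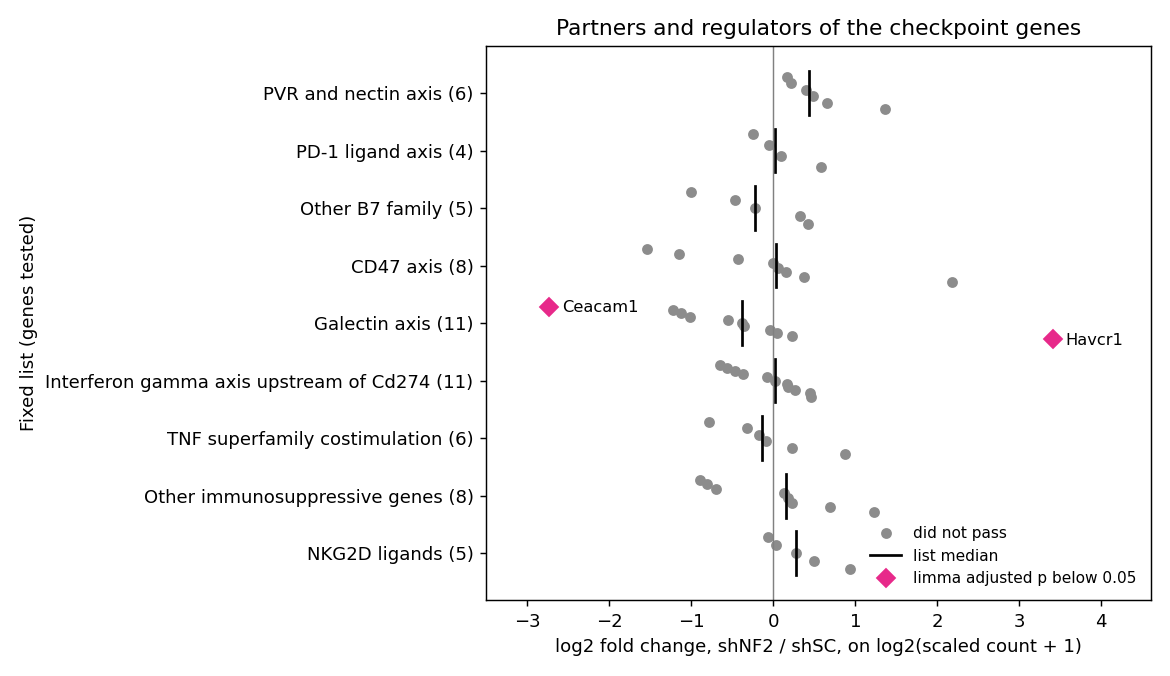
Log2 fold change (shNF2 over shSC, on log2(scaled count + 1)) of the tested genes of 9 lists of partners and regulators; grey points did not pass, violet-red diamonds had a limma adjusted p below 0.05, and black bars are list medians. Havcr1 at 3.41 and Ceacam1 at -2.73, both of the galectin list, are the genes that passed.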

How the data were processed

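The authors deposited 1 table of gene signal, reads scaled by 1 factor per library, as its name says. Build mm10 and, without a role, DESeq 1.22.1, HTSeq 0.5.3, STAR 2.5.0a and cutadapt 1.6 are listed in the submitters' processing notes. The organism label reads human, but identifiers are mouse Ensembl and values were treated as mouse. With a tolerance of 0.001 reads, 100% of values gave whole reads. Low genes had been removed before deposit: the smallest total over 3 libraries was 15 reads. The 4 rows that name no gene (47.7% to 48.7% of reads) were left out. Strand and overlap settings of the counting are not given in the sources used here.

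limma 3.58.1 (R 4.3.3, variance trend) was run on log2(scaled count + 1) for the 12813 genes whose mean reached 10; p-values were adjusted by Benjamini-Hochberg and the threshold was 0.05. Such fold changes understate low genes. The spread comes from 1 residual degree of freedom, of the shNF2 libraries, and 11.9 prior ones, of the variance trend over all genes. With 2 libraries against 1 an exact test gives p = 0.333 at the least. edgeR 4.0.16 (quasi-likelihood) and DESeq2 1.42.0 on the recovered reads were alternatives, beside other pseudocounts, filters, scalings and moderation. edgeR called 29 genes higher and 52 lower, limma 53 and 55. Intervals are exact Poisson or conditional binomial. Stand-in GC was the median of human GENCODE v29 coding transcripts of the same symbol (or a RefSeq synonym of it), for 80.5% of tested genes and all 6 members.

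The members and lists were chosen with earlier results of these data known. Named genes were the members, Nf2, a set of their direct partners and regulators, list genes passing limma and the 5 genes nearest to Tigit. The value of 1 listed partner is not reported here. No mouse transcript lengths or sequences were used, so levels are not compared between genes and no sequence is shown.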

Additional observations from a re-analysis of the deposited data

How the results depend on the processing

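The mean log2 differences of Tigit, Cd274, Cd47 and Lgals9 kept their sign under all 8 alternatives run for each. That of Tigit ran from 1.82 to 2.02, that of Cd274 from 0.73 to 1.07, that of Cd47 from -0.52 to -0.23 and that of Lgals9 from 0.15 to 0.31. Cd276 changed sign under 3 of its 8 alternatives (range -0.21 to 0.11) and Pvr under 1 (-0.13 to 0.036). Scaling by reads in genes moved the median of all genes to 0.11 and gave 2.02 for Tigit, 0.31 for Lgals9 and 0.036 for Pvr. The correction by stand-in GC, chosen after seeing the data, gave 0.28 for Lgals9 and 0.11 for Cd276, and for library 21 against library 20 it gave -0.40 for Cd47, -0.0052 for Cd276, -0.0019 for Pvr and 0.14 for Lgals9. Without the filter on low values limma called 110 genes higher and 122 lower, 2 and 2 of them in the partner lists. With a mean of at least 50, 0 partner genes were called higher, since Havcr1 was not tested. Under quantile normalization limma called 0 genes in either direction (882 at an unadjusted p under 0.05, 13 of them partners), and without a variance trend 0 (1036 and 15). edgeR called 29 genes higher. Without 1 of the shNF2 libraries no spread is left, so calls had no such alternative. No paired analysis was possible because the groups share no replicate number. Cd274 is limited by depth, with 44 reads in shSC.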

Other observations

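Stress ligands and genes of the TNF superfamily and its receptors were also counted in AB12. Of 5 NKG2D ligand genes, which mark stressed cells for natural killer cells, 0 passed limma, edgeR or DESeq2 and 0 were at an unadjusted p under 0.05. Ulbp1 stood at 1150 scaled counts (shSC), 1265 (library 20) and 1525 (library 21). Genes of this family have close copies, so their reads may be shared. Of 6 tested genes of TNF superfamily ligands and receptors 0 passed by any of these tools, and 2 were at an unadjusted limma p under 0.05, beside 9.27% of all tested genes. Tnfrsf9, which encodes 4-1BB, stood at 3922 scaled counts (shSC), 2016 (library 20) and 2569 (library 21) (log2 fold change -0.79, limma adjusted p = 0.174). The death receptor gene Fas had 562, 1053 and 1017 (0.88, adjusted p = 0.135).

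Of 8 other immunosuppressive genes 0 passed by any of these tools, and 3 were at an unadjusted limma p under 0.05, 1 higher and 2 lower, beside the same 9.27%. Tgfb1 stood at 1006 scaled counts (shSC), 575 (library 20) and 508 (library 21), and Tgfb2 had 37.0, 99.4 and 77.8. Nt5e, which encodes the adenosine-producing ectoenzyme CD73, lay on opposite sides of shSC, with 360 in shSC, 227 in library 20 and 791 in library 21. The genes named here are not among the direct partners of the 6 members and were chosen after their values were seen.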
